A study of Mus musculus with 8 samples.

Results

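The genes described here are those of the mouse CD antigens, the numbered surface molecules of blood cells, in 2 lines of MLL-AF9 leukaemia cells, 1 of which had lost most of its Cdc73 mRNA. They were chosen by a rule on names, set with earlier results of these data known. The rule takes every row of the deposited table whose symbol is Cd, a number, and an optional letter and digits, apart from Cd14, Cd36 and Cd74. That gave 84 genes of the 23361 in the table. Of these, 39 reached 1 FPKM (fragments scaled to transcript length and sequencing depth, a level per length) in at least 1 group and 45 did not, 11 of them being listed at 0 in all 4 groups. The 4 groups were floxed cells (genotype Cdc73fl/fl CreERT2) and wild type cells (Cdc73 +/+ CreERT2), each after 24 or 48 h of 7.5 nM 4-hydroxytamoxifen (4OHT). All groups are of strain 129S6, came from bone marrow transformed with the MLL-AF9 fusion oncogene, grew in 15% serum and 10 ng/mL interleukin 3, and carry CreER, the recombinase that 4OHT activates, so the wild type cells received both Cre activity and drug. Each group had 2 biological duplicates, which the authors' deposited table combines into 1 value, and levels below are these values, with no SD or n. The genotypes belong to separate lines, and untreated cells were not analysed here, so differences between the lines from before treatment cannot be told apart from those that followed excision.

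CD numbers were given to surface molecules recognised by clusters of antibodies, and they cut across protein families. Among them are tetraspanins, small proteins with 4 membrane passes that organise other receptors into patches, costimulatory ligands that T lymphocytes read on antigen-presenting cells, paired receptors that raise or lower the threshold for myeloid activation, and heavily glycosylated adhesion molecules. Flow cytometry of these molecules is the usual way to stage myeloid leukaemia cells, where progenitor antigens such as CD34 give way to antigens of granulocytes and monocytes as cells mature.

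At 48 h most of the called members were higher in floxed cells, whereas at 24 h calls in the 2 directions were near in number. A call is a q under 0.05 for floxed against wild type in the authors' deposited table, and its direction is that of the FPKM values. At 24 h, 9 of the 39 expressed members were called higher and 7 lower, next to 13.4% higher and 14.2% lower of 10987 genes tested. At 48 h, 21 were called higher and 5 lower (53.8% and 12.8%), next to 25.7% higher and 31.0% lower of 11039 genes. In either direction this was 41.0% of members called at 24 h and 66.7% at 48 h, next to 27.6% and 56.8% of the genes tested. The median difference of the 39 members, floxed minus wild type on the log2(FPKM + 1) scale, was -0.04 at 24 h and 0.60 at 48 h, where the medians over all 11158 expressed genes were -0.01 and -0.06. Over all 84 members, low ones included, the 48 h median was 0.11. Among the 34 members that reached 1 FPKM in every group it was 0.34. Part of the 0.60 thus came from the 5 that did not (Cd79b, Cd200r4, Cd1d2, Cd38 and Cd209c). These 5 could pass the filter through the group where they were high. All 5 were among the 21 called higher at 48 h, and Cd79b and Cd38 among the 9 at 24 h, so these counts share that limit. Of the 26 members called at 48 h, 20 had the smallest q that the authors' deposited table holds at that time, 0.000165.

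**Figure D1:**
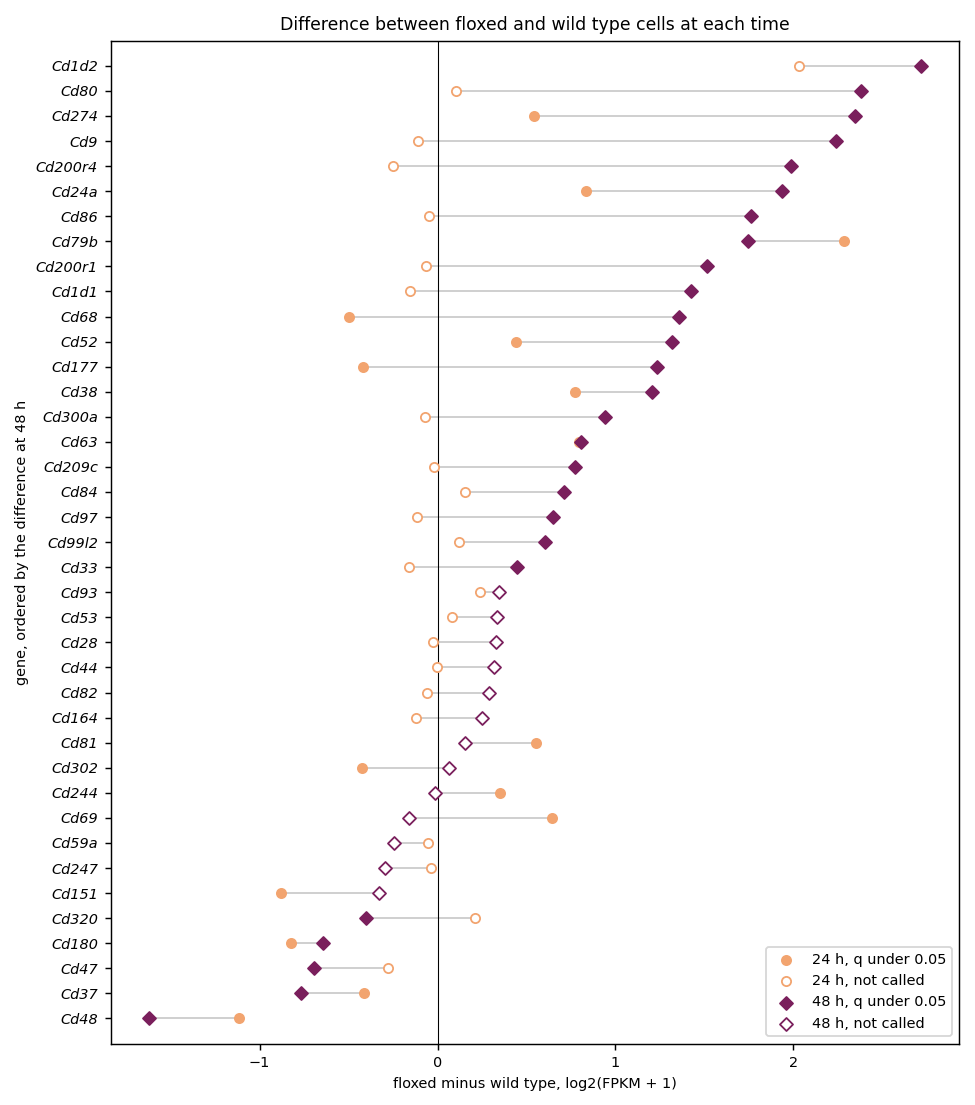
Floxed minus wild type on the log2(FPKM + 1) scale for the 39 expressed CD antigen genes, ordered by the difference at 48 h, with circles for 24 h, diamonds for 48 h and filled symbols for a q under 0.05. Cd1d2, Cd80 and Cd274 lie furthest right at 48 h and Cd48 furthest left, and Cd68 and Cd177 cross from the left of 0 to the right.

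The lines could be checked against their labels. Cdc73, the gene targeted for excision, stood at 26.2 FPKM in wild type cells and 5.96 in floxed ones at 24 h, and 26.9 and 5.45 at 48 h. All 7 myeloid and progenitor markers found in the table (Ptprc, Mpo, Elane, Kit, Itgam, Csf1r and Lyz2) were above 1 FPKM. Their levels differed between the lines at 48 h, given here as wild type and then floxed. Mpo (1368 and 1011), Elane (3587 and 1745) and Kit (17.1 and 5.42) were lower in floxed cells. Ptprc (43.7 and 78.1), Itgam (45.8 and 100), Csf1r (7.49 and 11.9) and Lyz2 (587 and 3333) were higher. The 5 natural killer markers summed to at most 0.138 FPKM in any group, and Cd3e, Cd8b1, Pax5, Hbb-b1 and Fcer1a were listed at 0 throughout. Some markers on the lists of other lineages did reach 1 FPKM. At 48 h, Tfrc (erythroid list) stood at 212 in wild type cells and 138 in floxed ones. Pecam1 (endothelial and stromal list) stood at 6.41 and 2.35, and Lck (T lymphocyte list) at 1.18 and 1.25. The lymphocyte genes Cd247 and Cd79b, which also reached 1 FPKM, are described below. Lists of other lineages differed between the lines too: the megakaryocyte and platelet list summed to 1.85 FPKM in wild type cells and 13.3 in floxed ones at 48 h. Most of that sum was Pf4, at 0.977 and 10.8. Itga2b (0.0245 and 1.07) and Gp1bb (0.109 and 1.07) were higher in floxed cells too, Ppbp stood at 0 and 0.126, and Gp9 was lower in floxed cells, at 0.744 and 0.235. The mast cell and basophil list summed to 4.26 and 12.1 at 24 h and to 4.50 and 8.05 at 48 h, mostly Mcpt8 and Ms4a2, with Gata2 lower in floxed cells (0.205 and 0.0273 at 48 h), Cpa3 at 0.0331 FPKM or lower and Fcer1a at 0. Their part in the results on single genes was not tested. In bulk RNA, fewer cells of a type and less RNA per cell cannot be told apart.

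The surface genes of these cells were dominated by a few abundant transcripts. Cd63, a tetraspanin of lysosomes and granule membranes, was the highest member in 3 groups, and Cd24a, a small mucin-like protein anchored to the membrane by a lipid, was the highest in floxed cells at 48 h. Together they held 27.2% and 28.4% of the summed member FPKM in wild type cells at 24 and 48 h, and 40.2% and 41.8% in floxed cells. The sum over all members came to 1910.2 FPKM in wild type cells against 2260.5 in floxed ones at 24 h, and 1712 and 2826 at 48 h, or 0.287%, 0.344%, 0.262% and 0.404% of each group's sum over the table. Cd24a stood at 159.9 FPKM in wild type cells and 285 in floxed ones at 24 h, and at 158 and 607 at 48 h. It was called higher at both times, 1.78-fold and 3.84-fold, and its wild type level differed little between the times. Among all genes it ranked 643 in wild type cells at both times, and 338 and then 187 in floxed cells.

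**Figure D2:**
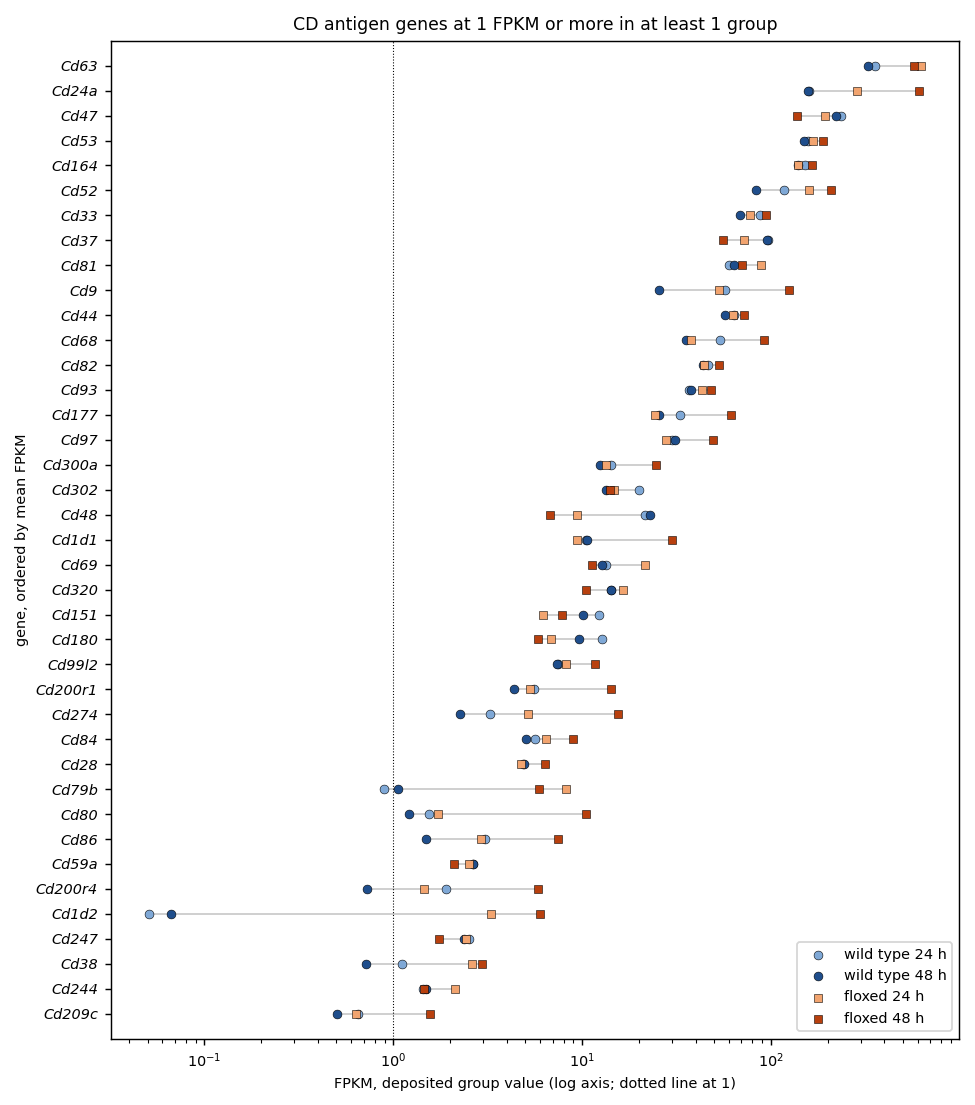
Deposited FPKM of the 39 expressed CD antigen genes in the 4 groups, on a log axis, with circles for wild type and squares for floxed cells, light for 24 h and dark for 48 h. The 2 wild type values of most genes lie close together, whereas floxed cells at 48 h lie to the right of the other 3 groups for genes such as Cd24a, Cd9, Cd80 and Cd274.

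All 7 tetraspanins with a CD symbol were expressed. At 24 h, 2 were called higher and 2 lower, and at 48 h, 2 higher and 1 lower. The shares over all genes tested were 13.4% higher and 14.2% lower at 24 h, and 25.7% and 31.0% at 48 h. The median log2 difference of the 7 was -0.06 at 24 h and 0.29 at 48 h. Cd63 stood at 359 FPKM in wild type cells and 624 in floxed ones at 24 h, and at 329 and 576 at 48 h. The difference was of nearly the same size at both times, 1.74-fold and 1.75-fold, and was called at each. Cd9, a tetraspanin of platelets, eosinophils and progenitors that binds integrins, behaved otherwise. Its level was 57.2 FPKM in wild type cells against 53.0 in floxed ones at 24 h, with no call, and 25.5 and 124 at 48 h. The 48 h difference of 4.87-fold was called, and it has 2 sides of similar size: wild type cells had 2.24-fold less at 48 h than at 24 h, and floxed cells 2.34-fold more. Of the platelet list given above, Pf4, Itga2b and Gp1bb were also higher in floxed cells at 48 h and Gp9 was lower, and their part in the Cd9 difference was not tested. Cd37, a leukocyte tetraspanin, was called lower at each time, at 96.6 and 72.3 FPKM at 24 h and 96.1 and 56.0 at 48 h, or 1.34-fold and 1.71-fold. Cd151, a partner of laminin-binding integrins, was 1.97-fold lower at 24 h (12.3 and 6.24) and stood at 10.2 and 7.89 at 48 h with no call. Cd81, a component of B cell and T cell receptor patches, was 1.47-fold higher at 24 h (60.0 and 88.4) and stood at 63.6 and 70.8 at 48 h, again with no call. Cd53 and Cd82 were called at neither time, and their levels lay between 150.5 and 189.9 FPKM and between 43.5 and 53.4. Cd81 and Cd82 each share their locus entry in the table with another gene, so how reads were divided there is uncertain.

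The costimulatory genes held some of the widest differences at 48 h. Of 9 members, 4 were expressed, 1 of them called higher at 24 h and 3 at 48 h. Among all genes tested, 13.4% were called higher at 24 h and 25.7% at 48 h. The median log2 difference of the 4 was 0.04 at 24 h and 2.05 at 48 h. Cd80, a ligand of CD28 and CTLA4 on T lymphocytes, stood at 1.54 FPKM in wild type cells and 1.73 in floxed ones at 24 h, and at 1.22 and 10.5 at 48 h. It was 8.66-fold higher at 48 h, the widest ratio among the members with both groups above 1 FPKM. Cd86, the second ligand of the same receptors, stood at 3.06 and 2.93 at 24 h and at 1.49 and 7.44 at 48 h, a 4.99-fold difference. As with Cd9, wild type cells had less Cd86 at 48 h, 2.05-fold, and floxed cells 2.54-fold more. Cd274, which encodes PD-L1, the ligand of the inhibitory receptor PD-1, was called at both times, at 3.25 and 5.18 FPKM at 24 h (1.59-fold higher) and 2.25 and 15.5 at 48 h (6.89-fold). Cd28 itself, the receptor, stood at 4.86 and 4.75 at 24 h and 4.90 and 6.41 at 48 h without a call. The other 5, among them Cd40 and Cd83 (both markers of activated antigen-presenting cells), stayed under 1 FPKM, Cd40 at no more than 0.159 and Cd83 at no more than 0.143.

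The start regions of 5 members are printed as examples of the patterns described. Cd80, Cd274 and Cd9 are among the members called over 4-fold higher at 48 h, which also include Cd79b and Cd86. Cd48 is the 1 expressed member called over 2-fold lower, and Cd68, like Cd177, had calls of opposite direction at the 2 times. They are RefSeq windows of assembly GRCm38.p6, the assembly of mm10, from 250 bases before to 50 after the annotated start, 5′ to 3′ on the gene's strand. Capitals mark matches on either strand to AP-1 (TGANTCA), PU.1 (GAGGAAGT), C/EBP (TTGCNNCAA), the E-box CACGTG or the TATA element TATAAA. The windows are chr16:38458683-38458982 on the plus strand for Cd80, chr19:29367188-29367487 on the plus strand for Cd274, chr6:125494711-125495010 on the minus strand for Cd9, chr11:69666121-69666420 on the minus strand for Cd68, and chr1:171681742-171682041 on the plus strand for Cd48.
Cd80: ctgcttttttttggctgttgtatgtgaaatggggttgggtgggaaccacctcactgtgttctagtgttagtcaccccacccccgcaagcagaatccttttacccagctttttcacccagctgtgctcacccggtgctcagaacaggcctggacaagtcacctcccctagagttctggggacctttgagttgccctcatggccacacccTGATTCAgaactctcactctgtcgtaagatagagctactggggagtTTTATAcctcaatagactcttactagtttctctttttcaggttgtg
Cd274: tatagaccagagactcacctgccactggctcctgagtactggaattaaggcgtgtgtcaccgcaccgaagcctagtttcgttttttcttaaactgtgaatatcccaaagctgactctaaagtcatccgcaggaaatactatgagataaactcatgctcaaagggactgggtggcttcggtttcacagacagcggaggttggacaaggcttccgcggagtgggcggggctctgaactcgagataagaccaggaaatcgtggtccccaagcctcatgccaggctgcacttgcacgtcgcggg
Cd9: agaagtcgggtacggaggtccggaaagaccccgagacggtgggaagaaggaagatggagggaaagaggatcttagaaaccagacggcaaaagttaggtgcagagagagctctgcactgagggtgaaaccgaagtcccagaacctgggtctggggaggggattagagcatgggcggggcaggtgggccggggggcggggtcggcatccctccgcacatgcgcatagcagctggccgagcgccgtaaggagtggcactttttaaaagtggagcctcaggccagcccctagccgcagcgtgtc
Cd68: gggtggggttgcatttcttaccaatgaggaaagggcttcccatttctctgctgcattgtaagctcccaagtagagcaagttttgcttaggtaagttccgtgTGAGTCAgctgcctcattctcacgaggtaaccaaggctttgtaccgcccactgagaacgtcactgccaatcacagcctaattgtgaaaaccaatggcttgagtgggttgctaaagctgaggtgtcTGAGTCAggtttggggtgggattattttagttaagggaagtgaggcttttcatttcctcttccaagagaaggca
Cd48: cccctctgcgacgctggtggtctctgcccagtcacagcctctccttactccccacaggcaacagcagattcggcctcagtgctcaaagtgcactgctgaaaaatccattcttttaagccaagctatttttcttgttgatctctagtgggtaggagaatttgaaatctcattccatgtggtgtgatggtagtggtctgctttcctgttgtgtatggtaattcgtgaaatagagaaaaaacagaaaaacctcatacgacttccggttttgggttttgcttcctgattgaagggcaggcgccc
Cd68 holds 2 AP-1 matches, starting 149 and 24 bases before the start. Cd80 holds 1, starting 42 bases before it, with a TATA match on the opposite strand from base 5 after it. The Cd80 window lies inside the gene as GENCODE M21 places it (38455561 to 38496335), so its distances hold for the RefSeq start only. The windows of Cd274, Cd9 and Cd48 hold none of these letters. Among 28 expressed members with such a window, 4 held an AP-1 match (Cd68, Cd80, Cd84 and Cd244), next to 7.93% of 27025 genes. PU.1 matched 2 of the 28 (Cd53 and Cd37) next to 3.28% of genes, and the E-box 3 (Cd37, Cd164 and Cd244) next to 7.24%. The TATA element matched 3 (Cd80, Cd81 and Cd177) next to 14.2%, and C/EBP none, next to 2.12%. Of the 28, 13 were called higher at 48 h. AP-1 matched 3 of these 13, the TATA element 2, and PU.1 and the E-box 0. Of the 5 called lower, PU.1 and the E-box matched 1 each, and AP-1 and the TATA element 0. A link between matches and calls was not tested.

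All 4 expressed paired receptors, from 11 members in all, were called higher at 48 h and none was called at 24 h. Next to this, 25.7% of the genes tested were called higher at 48 h, and 27.6% in either direction at 24 h. The median log2 difference of the 4 was -0.12 at 24 h and 1.23 at 48 h. These immunoglobulin-like proteins come in inhibitory and activating versions. Cd33 encodes a lectin of myeloid cells that binds sialic acid and is a standard leukaemia antigen. Its level was 87.2 FPKM in wild type cells and 77.9 in floxed ones at 24 h, and 68.6 and 93.8 at 48 h (1.37-fold higher). Cd300a, an inhibitory receptor for membrane lipids, stood at 14.2 and 13.5 at 24 h and at 12.4 and 24.8 at 48 h (1.99-fold). Cd200r1, the inhibitory receptor for CD200, stood at 5.60 and 5.30 at 24 h and at 4.36 and 14.3 at 48 h (3.28-fold). Cd200r4, an activating relative, stood at 1.91 and 1.45 at 24 h and at 0.723 and 5.82 at 48 h. It shares 88.4% of 803 aligned coding bases with Cd200r1, so how reads were divided between them is uncertain. In each of the 4, wild type cells had less at 48 h than at 24 h and floxed cells more. Cd200r1 and Cd200r4 lie with Cd200r2 and Cd200r3 on chromosome 16 between 44765736 and 44981380, and of the lower pair Cd200r3 was also called higher at 48 h, at a listed 0 in wild type cells and 0.620 FPKM in floxed ones, whereas Cd200r2 stood at 0.0368 and 0.494 with no call. The ligand gene Cd200 reached at most 0.0334 FPKM.

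The SLAM and CD2 family, receptors that bind each other between blood cells, went in different directions although 3 of its genes are neighbours. Cd244, Cd48 and Cd84 lie on chromosome 1 between 171559193 and 171890718. Cd48, the ligand of CD244 and a marker used to sort blood progenitors, stood at 21.6 FPKM in wild type cells and 9.42 in floxed ones at 24 h, and at 23.0 and 6.81 at 48 h. It was the only expressed member at least 2-fold lower at either time. Cd84, which binds itself, stood at 5.67 and 6.43 at 24 h and at 5.07 and 8.93 at 48 h, where it was called 1.76-fold higher. Cd244, the receptor of CD48, was called 1.47-fold higher at 24 h (1.44 and 2.12) and stood at 1.49 and 1.46 at 48 h. Cd2 stayed at or under 0.0515 FPKM.

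Of 10 sialomucins and adhesion molecules, 8 were expressed. At 24 h, 2 were called higher and 1 lower, and at 48 h, 5 higher and 1 lower. The genes tested as a whole had 13.4% higher and 14.2% lower at 24 h, and 25.7% and 31.0% at 48 h. The median log2 difference of the 8 was -0.06 at 24 h and 0.63 at 48 h. Besides Cd24a, Cd52, a very short lipid-anchored glycoprotein of leukocytes, was higher at both times, at 117 and 159 FPKM at 24 h (1.36-fold) and 83.3 and 209 at 48 h (2.51-fold). Cd47, the signal on the cell surface that restrains engulfment by phagocytes, was lower at 48 h, 1.62-fold, at 222 and 137, after 236 and 195 at 24 h with no call. Cd97, an adhesion receptor of the G protein-coupled type, was called 1.58-fold higher at 48 h (31.1 and 49.2), for which the authors' deposited table gives q = 0.0495, and it shares its locus entry with Ddx39. Cd99l2 was 1.59-fold higher at 48 h (7.39 and 11.7). Cd164, a sialomucin of progenitors, and Cd44, the hyaluronan receptor, were called at neither time. Cd164 lay between 139 and 166 FPKM and Cd44 between 57.5 and 71.9, and the sign of the very small Cd44 difference at 24 h (-0.01) turned with groups rescaled to the same sum (0.01).

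Cd68 and Cd177 were called lower at 24 h and higher at 48 h. Cd68, a mucin-like protein of the lysosomes of macrophages, stood at 54.1 FPKM in wild type cells and 38.0 in floxed ones at 24 h, and at 35.5 and 92.6 at 48 h. It was 1.43-fold lower and then 2.61-fold higher. Cd177, a lipid-anchored protein of neutrophils, stood at 33.1 and 24.5 at 24 h and at 25.7 and 61.8 at 48 h, 1.35-fold lower and then 2.40-fold higher. The authors' deposited table gives q = 0.00247 for Cd68 and q = 0.0137 for Cd177 at 24 h. Of 11 members called at both times these were the 2 with opposite calls, next to 136 of 2479 expressed genes (5.49%) called at both times. The others were higher at each time (Cd63, Cd24a, Cd52, Cd274, Cd79b and Cd38) or lower at each time (Cd37, Cd48 and Cd180). The difference between the times was not tested, since the table gives 1 value per group.

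Of the 4 expressed C-type lectins, 1 was called higher and 1 lower at 24 h, and 1 higher and 0 lower at 48 h. Beside these counts, 13.4% of all genes tested were higher and 14.2% lower at 24 h, and 25.7% and 31.0% at 48 h. Cd69, an early activation antigen, was 1.61-fold higher at 24 h (13.4 and 21.6) and stood at 12.7 and 11.3 at 48 h with no call. Cd302 was 1.36-fold lower at 24 h (20.1 and 14.8) and stood at 13.5 and 14.1 at 48 h, where the sign of the small difference turned with groups rescaled to the same sum. Cd93, a lectin-like antigen of myeloid progenitors and of MLL-rearranged leukaemia cells, lay between 36.7 and 48.2 FPKM with no call. Cd209c, a relative of the dendritic cell lectin DC-SIGN, stood at 0.505 and 1.57 at 48 h and was called higher, while the other 6 genes of its cluster on chromosome 8 stayed at or under 0.0627. Cd320, the receptor that takes up vitamin B12 with transcobalamin, stood at 14.2 and 16.6 at 24 h with no call and was 1.35-fold lower at 48 h (14.3 and 10.5). The macrophage scavenger receptor Cd163 reached at most 0.0278 FPKM.

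Cd1d1 and Cd1d2 lie side by side on chromosome 3 (86986551 to 86999441) and encode CD1d, which presents lipids to natural killer T cells. Cd1d1 stood at 10.5 FPKM in wild type cells and 9.39 in floxed ones at 24 h, and at 10.6 and 30.1 at 48 h, a called difference of 2.84-fold. Cd1d2 was nearly silent in wild type cells at both times, at 0.0511 and 0.0663, and stood at 3.30 and 6.01 in floxed cells. The authors' deposited table gives q = 0.246 at 24 h and q = 0.0236 at 48 h for Cd1d2, so the difference at 24 h was large and not called. Over 1007 aligned coding bases of GENCODE M21 the 2 genes share 96.8%, with an identical run of 245 bases, and reads from such stretches could have been divided between them in any way. The annotation lists Cd1d2 as a polymorphic pseudogene in the reference strain. The stretch below, coding bases 117 to 266 of both (chr3:86998701-86998850 on the minus strand for Cd1d1, chr3:86987043-86987192 on the plus strand for Cd1d2, mm10), shows how few positions separate them, with the 5 differing bases in capitals.
Cd1d1: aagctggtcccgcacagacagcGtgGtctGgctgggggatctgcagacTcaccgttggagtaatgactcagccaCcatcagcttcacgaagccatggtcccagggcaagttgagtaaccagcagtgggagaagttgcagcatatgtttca
Cd1d2: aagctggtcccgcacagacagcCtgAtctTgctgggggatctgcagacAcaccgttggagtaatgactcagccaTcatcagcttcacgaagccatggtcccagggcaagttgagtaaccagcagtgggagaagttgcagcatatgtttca

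Of the remaining surface genes, Cd38 was higher and Cd180 lower at both times. Cd38, an enzyme that consumes NAD on the surface of maturing cells, stood at 1.11 FPKM in wild type cells and 2.61 in floxed ones at 24 h (2.34-fold), and at 0.714 and 2.95 at 48 h. Cd180, a Toll-like receptor relative that dampens responses to bacterial products, stood at 12.8 and 6.82 at 24 h (1.88-fold lower) and at 9.69 and 5.85 at 48 h (1.66-fold lower). Its partner Ly86, also named MD-1, stood at 6.91 and 4.84 at 24 h, where it was called lower, and at 4.47 and 3.17 at 48 h with no call. Among complement regulators only Cd59a was expressed, at 2.66 FPKM or lower in every group and with no call.

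Antigen receptor genes of lymphocytes were close to silent, with 2 exceptions. Cd79b, the signalling partner of the B cell receptor, stood at 0.890 FPKM in wild type cells and 8.21 in floxed ones at 24 h, and at 1.06 and 5.90 at 48 h, and was called higher at both times (5.57-fold at 48 h). Its partner Cd79a stood at 0.0115 and 0.164 at 24 h and at 0.0376 and 0.278 at 48 h, the B cell surface gene Ms4a1 reached at most 0.00817, and the B cell transcription factor Pax5 was listed at 0 throughout. Cd79a, under 1 FPKM throughout, had higher values in floxed cells at both times, as did Cd79b, whereas Ms4a1 and Pax5 were at or near 0. The source of the Cd79b RNA was not tested. Cd247, the zeta chain of the T cell receptor, lay between 1.76 and 2.53 FPKM with no call, and it shares its locus entry with Pou2f1. Cd3d reached at most 0.135, Cd3g 0.0185, Cd4 0.00523 and Cd8a 0.0455 FPKM.

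Of the 45 members under 1 FPKM, few were tested, that is, had a q under 1. At 24 h, 3 were tested and 2 of them called lower, and at 48 h, 6 were tested, with 3 called higher and 1 lower. Cd34, the progenitor sialomucin, was called lower at both times, at 0.620 FPKM in wild type cells and 0.315 in floxed ones at 24 h and at 0.690 and 0.254 at 48 h, and it shares its locus entry with Gm16897. Cd300c, called lower at 24 h, stood at 0.492 and was listed at 0 in floxed cells. Cd300e, an activating receptor of monocytes, stood at 0.0651 and 0.561 at 48 h, and Cd55, which speeds the decay of complement enzymes, at 0.0635 and 0.345, both called higher with Cd200r3.

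**Figure D3:**
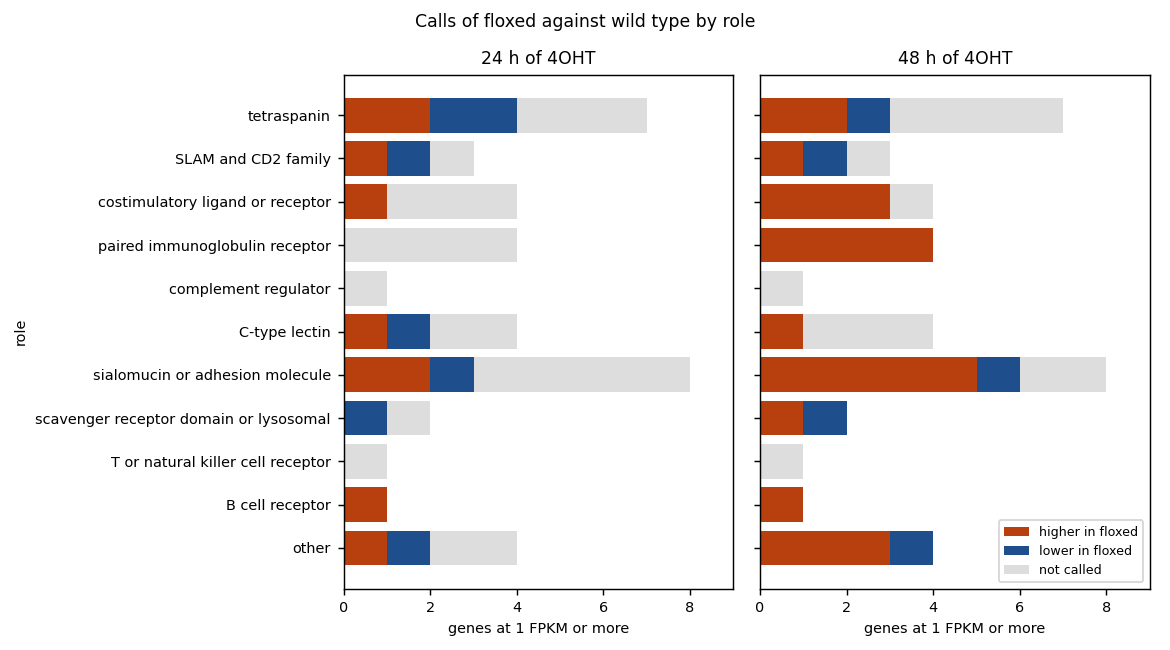
Number of expressed CD antigen genes called higher (red), called lower (blue) or not called (grey) in floxed against wild type cells, by role, at 24 h (left) and 48 h (right). All 4 paired receptors and 3 of 4 costimulatory genes are red at 48 h, against 0 and 1 at 24 h. Over all genes tested, 25.7% were called higher at 48 h and 13.4% at 24 h.

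Set side by side in time, the members were mostly a little lower at 48 h than at 24 h in wild type cells and higher in floxed cells. No q is given for this comparison, and the table does not say whether the times were scaled together, so sizes only are given. In wild type cells 28 of the 39 members (71.8%) were lower at 48 h, next to 55.2% of all expressed genes, and in floxed cells 26 (66.7%) were higher, next to 43.2%. The median change came to -0.12 in wild type cells and 0.27 in floxed ones on the log2(FPKM + 1) scale, next to -0.01 and -0.08 over all expressed genes. A change of 1 or more on that scale was seen for 1 member in wild type cells, Cd9, which was lower at 48 h (0.538% of all expressed genes were lower by as much). In floxed cells 10 members were higher by 1 or more (4.80% of all) and 0 lower (1.37% of all). The 10 were Cd24a, Cd9, Cd68, Cd177, Cd1d1, Cd200r1, Cd274, Cd80, Cd86 and Cd200r4, and Cd80 differed most, 6.08-fold. Cd1d1 and Cd24a had nearly equal wild type levels at the 2 times (10.5 and 10.6 FPKM for Cd1d1, 159.9 and 158 for Cd24a), whereas the 48 h differences of Cd9, Cd86, Cd200r4 and Cd68 came with lower wild type values as well as higher floxed ones. Cd69 was 1.92-fold lower in floxed cells at 48 h than at 24 h.

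**Figure D4:**
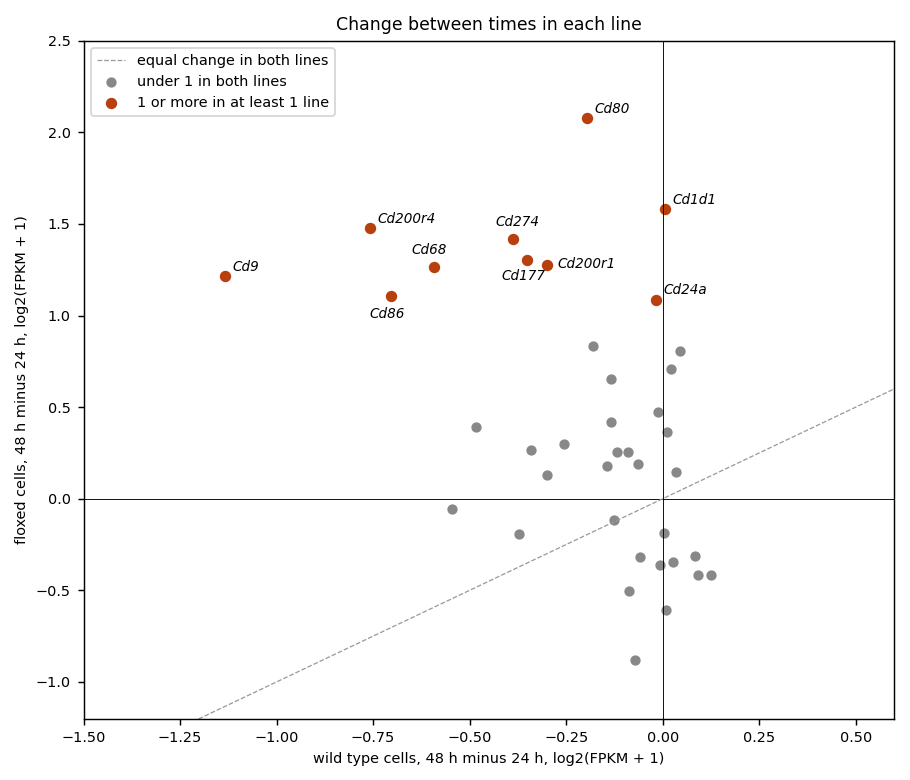
Change from 24 to 48 h in wild type cells (horizontal) against that in floxed cells (vertical) on the log2(FPKM + 1) scale, with 1 point per expressed CD antigen gene and a dashed line where both lines would change equally. The 10 labelled genes lie more than 1 above 0 in floxed cells, and Cd9 alone lies more than 1 below 0 in wild type cells.

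Relatives and partners with other symbols were also read. Of 52 such genes, 32 were expressed, with 5 called higher and 7 lower at 24 h and 16 higher and 7 lower at 48 h. Over all genes tested, 13.4% were called higher and 14.2% lower at 24 h, and 25.7% higher and 31.0% lower at 48 h. Of 15 tetraspanins named Tspan, 9 were expressed, and of these 0 were called higher and 6 lower at 48 h, with a median log2 difference of -0.64, unlike the 2 higher and 1 lower of those with CD symbols, a contrast that was not tested. Tspan4 was 2.36-fold lower at 48 h (44.0 and 18.6), Tspan2 stood at 3.59 and 0.260, and Tspan13 at 1.51 and 0.553. Tspan9 (0.254 and 0.614) and Tspan12 (0.0849 and 0.447), both under 1 FPKM, were called higher at 48 h. The 4 further CD300 genes were all called higher at 48 h, among them Cd300lf, 4.83-fold (5.87 and 28.4), Cd300ld, 2.17-fold, and Cd300lb, 2.02-fold. Cd300lb and Cd300ld had been called lower at 24 h, at 3.21 and 1.68 and at 1.89 and 0.235. Thbs1, a secreted ligand of CD47, was 4.20-fold higher at 24 h (49.3 and 207) and 16.8-fold higher at 48 h (35.2 and 592). Sirpa, the phagocyte receptor of CD47, was 2.13-fold higher at 48 h (62.4 and 133), while Cd47 itself was lower. Siglece, a relative of Cd33, was 2.11-fold higher at 24 h and 4.99-fold at 48 h (1.30 and 6.50). The inhibitory receptors Lilrb4 and Pilra were 4.33-fold and 3.42-fold higher at 48 h, and Pvr, a ligand of CD96 and CD226, was 2.19-fold higher. The locus entries of Tspan2, Tspan4, Cd300lf and Pilra are shared ones, which leaves the split of reads at each unclear. Of the receptors of the costimulatory ligands, Pdcd1 was listed at 0 and Ctla4 at no more than 0.0419 FPKM, while Cd28 stood at the levels given above.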

How the data were processed

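Poly(A) RNA of 8 libraries (4 groups of 2 duplicates) was sequenced. The submitters' processing notes name Bowtie2, Cufflinks 2.1 and Cuffdiff as tools and mm10 as the build, without saying which step each served. Per the file headers, the authors deposited 1 FPKM value per gene and group, a q-value for the genotype comparison at each time, and a fold, which was not used. Read depth, strandedness, annotation and filters were not stated, so no interval or detection limit was computed. FPKM is relative to all other RNA.

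The members, roles, partners and markers were chosen with earlier results of these data known. With 1 value per group no model was fitted. Genes counted as expressed reached 1 FPKM in at least 1 group. Genes were called tested where the authors' q-value was under 1. Folds are ratios of FPKM, given where both groups reach 1 FPKM, and log2 differences use a pseudocount of 1. Every expressed member could be named, and partners where called with a ratio of 2 or more at either time, or where they pair with a member described. Rows with date numbers as names (27) were left out of counts. Values of some genes are not reported here. Members were located in GENCODE M21 by symbol, synonym and position (84 of 84), and promoter windows are RefSeq's for GRCm38.p6. The counting was tested on simulated data. Python 3.11.15, pandas 2.3.3 and numpy 2.4.6 were used. Alternatives varied the pseudocount, filter, q threshold, scaling and genes with a shared locus entry.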

Additional observations from a re-analysis of the deposited data

Results flagged for a closer look

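Cd68 and Cd177 were called in opposite directions at the 2 times. On the log2(FPKM + 1) scale, Cd68 differed by -0.50 between floxed and wild type cells at 24 h and by 1.36 at 48 h. Cd177 differed by -0.42 and 1.23. The difference between the times was not tested. In both genes the wild type level was lower at 48 h than at 24 h (54.1 and 35.5 FPKM for Cd68, 33.1 and 25.7 for Cd177), and the floxed level was higher.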

How the results depend on the processing

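The 21 members called higher and 5 called lower at 48 h, and the 9 called higher at 24 h, were counted again under other settings. These counts stayed within 1.5 times under a q under 0.01, under other filters and without genes that share a locus entry. Rescaling keeps the authors' q and could change only the direction of a call, so the unchanged counts under it say little. At a q under 0.01, 4 members were called lower at 24 h instead of 7. For the members' median log2 difference of 0.60 at 48 h, dropping the filter on low values gave 0.11, a pseudocount of 5 gave 0.42, and the value was 0.71 without genes that share a locus entry. With a pseudocount of 0.1, 2 members instead of 1 differed by a log2 size of 1 or more between times in wild type cells. Of single members, 5 calls at 24 h and 4 at 48 h were lost at a q under 0.01. Another pseudocount cannot turn the direction of a difference. Rescaling turned no called direction, but it moved the differences little, as for Cd63 at 48 h (0.81 and 0.71 rescaled). A filter on the mean over groups was chosen after seeing the data. Replicates could not be left out, because the table combines them. No paired analysis was possible because the columns carry 1 value per group and no replicate. Depth is unknown, so values under 1 FPKM are the least certain.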

Other observations

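Coding sequences of other families among the CD antigen genes were compared in GENCODE M21, since near-identical copies can exchange reads. Cd200r2 and Cd200r4 share 91.3% of 744 aligned coding bases, with an identical run of 110 bases, and Cd200r1 and Cd200r4 share 88.4% of 803, with a run of 88. Cd59a and Cd59b share 85.0% of 354 bases, with a run of 47, and stood at 2.66 and 0.233 FPKM in wild type cells at 48 h. Cd300a and Cd300c share 75.9% of 676 bases, with a run of 31. How the authors' counting handled reads that fit more than 1 gene is not stated in the labels or the file.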
